A study of Homo sapiens with 48 samples.

Results

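The IER and PHLDA early response genes were followed as a set of 7 transcripts, namely IER2, IER3, IER5, IER5L, PHLDA1, PHLDA2 and PHLDA3. The set was named with earlier results of these data known, and its members are the rows of the deposited count table that carry these symbols. They make up 7 of its 60610 genes. All 7 were among the 19626 genes with enough counts to be tested. The cells were 1 clone of HEK293, a human embryonic kidney line, that stably expresses the angiotensin II type 1 receptor (AT1R, encoded by AGTR1), and the control cells carried the receptor as well. Cells in serum-free medium received no stimulus (control), 1 nM angiotensin II (AII), 10 µg/L epidermal growth factor (EGF), or AII and EGF together (AII + EGF), for 6 h or 24 h. Poly(A) RNA was sequenced, and each of the 8 groups of treatment and time has 6 deposited libraries. The labels do not say whether the libraries of a group came from separate cultures, so p-values measure only the spread between these libraries.

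Early response genes are switched on by transcription factors that are already present in the cell, so their transcription needs no new protein synthesis after a receptor fires. EGF acts through a receptor tyrosine kinase and AII through a Gq-coupled receptor, and both routes reach the ERK kinases. Many early response RNAs are short-lived, and their levels fall again as phosphatases and other feedback proteins accumulate. The earliest time sampled here was 6 h, so a rise that had passed by then would not be seen. The members belong to different protein families. IER2, IER5 and IER5L are related nuclear proteins, and IER5 brings the phosphatase PP2A to its substrates, among them the heat shock factor HSF1. IER3 (IEX-1) is an unrelated stress-inducible protein that prolongs ERK activity by acting on PP2A. The PHLDA proteins share a pleckstrin homology-like domain. PHLDA1 (TDAG51) has been linked to cell survival, PHLDA2 is an imprinted gene that restrains placental growth, and PHLDA3 is a p53 target that keeps the kinase AKT from the membrane.

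The analysis kept 38 of the 48 libraries, with 4 control, 5 AII, 3 EGF and 4 AII + EGF libraries at 6 h and 6, 5, 5 and 6 at 24 h. Left out were 8 libraries that form 4 pairs with nearly the same counts (chi-square per degree of freedom 0.397 to 0.505). The next closest of all 1128 pairs of libraries stood at 2.02. These pairs are control 6 h replicate 1 with EGF 24 h replicate 2, EGF 6 h replicate 1 with AII + EGF 6 h replicate 4, control 6 h replicate 2 with AII 24 h replicate 4, and EGF 6 h replicates 2 and 6. The last pair lies within 1 group, and the other 3 join different labels. Left out too were the libraries labelled AII 6 h replicate 6 and AII + EGF 6 h replicate 6, because their expression went against their labels. A scale was built from 1488 other genes, picked because they differed between the kept AII and AII + EGF libraries of 6 h. By construction the kept AII libraries average 0 on it and the kept AII + EGF libraries 1. The 2 doubted libraries lay at 0.85 and −0.01. AII + EGF 6 h replicate 4, of the near-identical pair with an EGF library, lay at 0.7. Since that choice rests on measured expression, results at 6 h are also given with these 2 libraries included (40 libraries) and with all 48. The kept libraries held 17.8 to 30 M counts. Levels are given as CPM, the counts divided by the library total in M counts after scaling by TMM factors. The epithelial keratin KRT8 (18.1 to 138 CPM) and the mesenchymal filament gene VIM (170 to 622 CPM), both known in HEK293, were present in all kept libraries, and AGTR1 reached 3960 to 15200 CPM. PTPRC and CD3E of blood cells were at most 0.134 CPM, VWF of endothelium at most 1.52 CPM and ALB of liver at most 0.399 CPM, while COL3A1 of fibroblasts was at 7.57 to 28.7 CPM.

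The members lie at separate places in the genome (RefSeq, GRCh38.p14). IER2 is at chr19:13150411-13154911, IER3 at chr6:30743199-30744547, IER5 at chr1:181088700-181092900 and IER5L at chr9:129175552-129178261. PHLDA1 is at chr12:76025447-76031776, PHLDA2 at chr11:2928273-2929420 and PHLDA3 at chr1:201464278-201469188. The antisense gene IER3-AS1 overlaps IER3, and PHLDA1-AS1 overlaps PHLDA1. IER3-AS1 had 0 to 3 counts per kept library against at least 37 of IER3, and PHLDA1-AS1 was not analysed here. Whether the counting used strand is not stated, so reads of a gene and of its antisense partner cannot be told apart.

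RefSeq promoter sequences were at hand for 4 of the 7 members (IER2, IER5, IER5L and PHLDA1). The 250 bases before the start are shown for the 3 of them whose RNA passed the adjusted p in a comparison with control, so that the letters can be set beside the values below. Capitals mark matches, on either strand, to the ETS core CCGGAA and the GC box GGGCGG, written in the direction of the gene. IER2 is read from chr19:13150161-13150410 on the plus strand, IER5 from chr1:181088450-181088699 on the plus strand and PHLDA1 from chr12:76031777-76032026 on the minus strand.
IER2: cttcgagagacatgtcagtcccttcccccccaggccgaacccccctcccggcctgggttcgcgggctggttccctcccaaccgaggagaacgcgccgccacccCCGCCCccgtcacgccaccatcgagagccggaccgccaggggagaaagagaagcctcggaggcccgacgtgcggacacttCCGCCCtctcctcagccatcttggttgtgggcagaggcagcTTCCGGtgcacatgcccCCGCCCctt
IER5: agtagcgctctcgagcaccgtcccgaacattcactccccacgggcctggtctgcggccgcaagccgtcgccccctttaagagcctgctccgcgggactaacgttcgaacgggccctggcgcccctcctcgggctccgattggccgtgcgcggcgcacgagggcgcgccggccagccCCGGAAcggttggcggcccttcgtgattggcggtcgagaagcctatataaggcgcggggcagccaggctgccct
PHLDA1: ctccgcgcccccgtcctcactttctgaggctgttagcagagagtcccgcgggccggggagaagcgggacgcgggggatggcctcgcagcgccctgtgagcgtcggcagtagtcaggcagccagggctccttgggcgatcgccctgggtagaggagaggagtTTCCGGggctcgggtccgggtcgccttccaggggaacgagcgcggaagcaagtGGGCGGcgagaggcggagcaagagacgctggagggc
IER2 has 1 ETS core and 3 GC boxes in this window, IER5 has 1 ETS core, PHLDA1 has 1 of each, and IER5L has 2 GC boxes. Over 35116 promoters of the same length, 14.5% hold the ETS core and 42.6% the GC box. None of the 4 windows holds a CArG box (in 1.16% of promoters), the AP-1 site TGANTCA (6.57%), the CRE TGACGTCA (1.65%) or the EGR site GCGNGGGCG (8.41%). These are matches of letters only.

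The 7 transcripts differed widely in abundance. To compare genes, CPM were divided by exon length, which came from another annotation release than the one used for counting. IER5 was the most abundant in every group, with group means of 27.1 to 41.6 CPM per kb. PHLDA3 followed in 6 of the 8 groups (range over all groups 8.12 to 16.6). At 6 h PHLDA2 stood above it under EGF (16.2 against 15.6 CPM per kb), and PHLDA2 (24.5), IER3 (9.9) and IER2 (9.65) did under AII + EGF. PHLDA2 spanned 4.41 to 24.5 CPM per kb, IER2 6.1 to 9.65 and IER3 1.85 to 9.9. IER5L (0.668 to 1.18) and PHLDA1 (0.25 to 0.769) were the lowest. Between the lowest and the highest group mean, PHLDA2 ranged 5.57-fold and IER3 5.36-fold. PHLDA1 ranged 3.07-fold and PHLDA3 2.04-fold, while IER5L (1.76-fold), IER2 (1.58-fold) and IER5 (1.54-fold) varied least. The lowest member count in a kept library was 23, of PHLDA1.

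**Figure D1:**
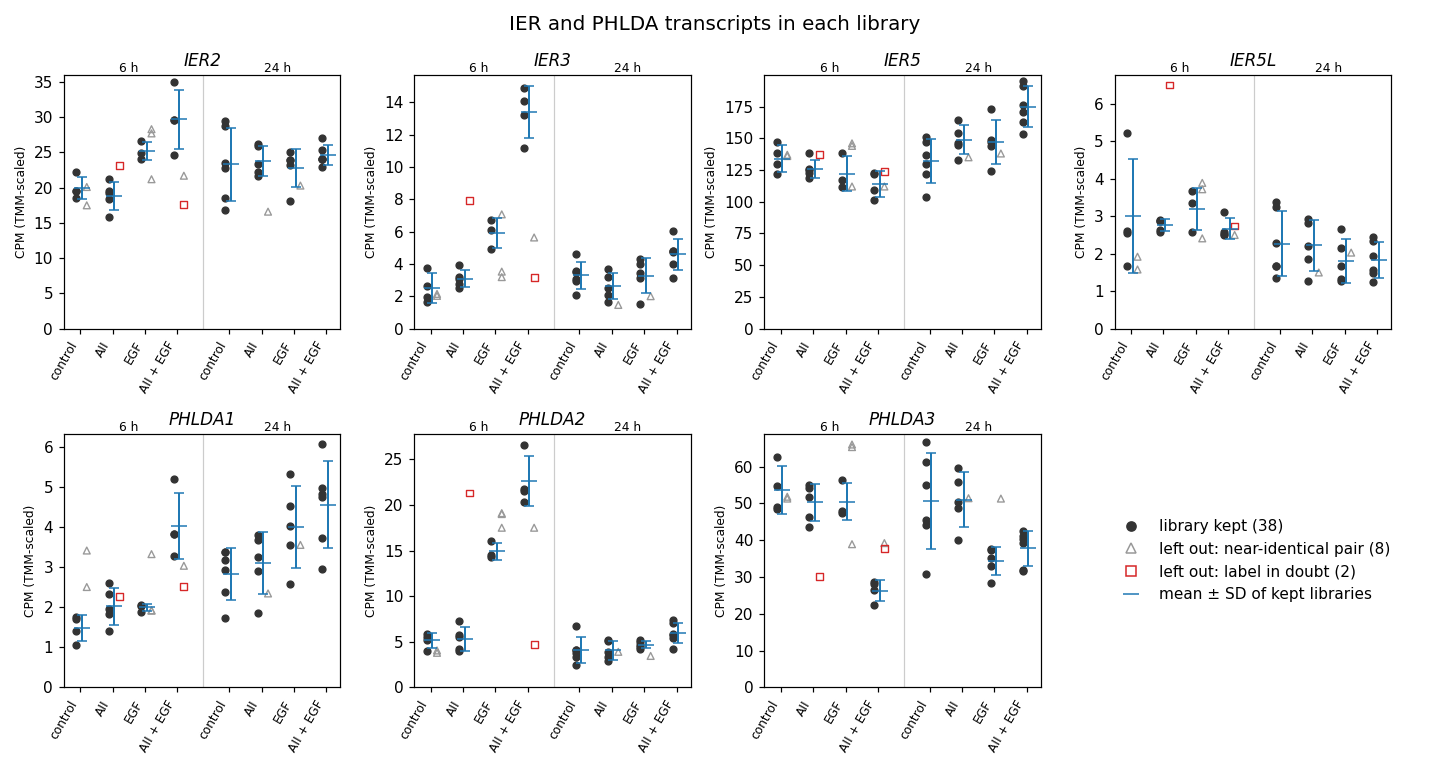
Level of each IER and PHLDA transcript (CPM, TMM-scaled, axis from 0) in every library of the 8 groups, with kept libraries as filled circles, their mean ± SD in blue, and the libraries left out as open symbols. At 6 h the AII + EGF libraries of IER3 (11.2 to 14.9 CPM) and PHLDA2 (20.3 to 26.6 CPM) lie above all other kept libraries, and those of PHLDA3 (22.3 to 28.7 CPM) below all other kept 6 h libraries.

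In the plot of levels by library, IER3 was low without stimulus. At 6 h the 4 control libraries had 1.67, 1.97, 2.63 and 3.74 CPM, and the 5 AII libraries 2.53, 2.76, 3.07, 3.22 and 3.94 CPM. The 3 EGF libraries had 4.92, 6.11 and 6.72 CPM and the 4 AII + EGF libraries 11.2, 13.2, 14.1 and 14.9 CPM. Control and AII overlapped, whereas every kept EGF library lay above both and every kept AII + EGF library above all kept EGF libraries. At 24 h the control libraries ran from 2.11 through a median of 3.28 to 4.64 CPM and the AII + EGF libraries from 3.16 through 4.77 to 6.07 CPM. The AII (2.63 ± 0.824, SD, n = 5) and EGF means (3.28 ± 1.09, n = 5) of that time lay within the control range. In order of group means, AII + EGF at 6 h stood apart from all others, and EGF at 6 h, next in order, overlapped with AII + EGF at 24 h.

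PHLDA2 had the same 3 groups on top. The 6 h control libraries had 3.93, 5.2, 5.57 and 5.85 CPM and the AII libraries 3.95, 4.19, 5.5, 5.72 and 7.24 CPM. The EGF libraries had 14.3, 14.5 and 16 CPM and the AII + EGF libraries 20.3, 21.5, 21.8 and 26.6 CPM. Neither of the last 2 groups overlapped with any other kept group. At 24 h the control libraries had 2.49 to 6.69 CPM (median 3.88) and the AII + EGF libraries 4.25 to 7.33 CPM (median 5.81). The AII mean (4.07 ± 1.03, n = 5) was next to the control mean (4.06 ± 1.42, n = 6), and the EGF mean was 4.69 ± 0.372 CPM (n = 5).

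PHLDA1 was sparse throughout. At 6 h the control libraries had 1.05, 1.4, 1.71 and 1.76 CPM, the AII libraries 1.41, 1.83, 1.95, 2.32 and 2.59 CPM, and the EGF libraries 1.88, 2.02 and 2.05 CPM. The AII + EGF libraries had 3.27, 3.81, 3.82 and 5.19 CPM and lay above all other 6 h libraries that were kept. The left-out libraries control replicate 1 (3.41 CPM) and EGF replicate 1 (3.32 CPM) lay within that range, and AII + EGF replicate 4 (3.03 CPM) below it. The 24 h means were higher than the 6 h means in each treatment, at 2.82 ± 0.653 (control, n = 6), 3.1 ± 0.776 (AII, n = 5), 4 ± 1.03 (EGF, n = 5) and 4.55 ± 1.08 CPM (AII + EGF, n = 6), with overlapping ranges.

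IER2 moved over a narrower range. Its 6 h control libraries had 18.5, 19.6, 19.6 and 22.2 CPM, the AII libraries 15.8, 18.4, 19.2, 19.5 and 21.2 CPM, the EGF libraries 24.1, 24.9 and 26.6 CPM and the AII + EGF libraries 24.7, 29.6, 29.6 and 35 CPM. Among kept 6 h libraries, those with EGF did not overlap with those without it. The left-out libraries EGF replicate 1 (21.2 CPM) and AII + EGF replicate 4 (21.7 CPM) lay below the highest control. How many of all genes separate in this way was not computed, for IER2 or for the other members. At 24 h the 4 group means lay between 22.8 ± 2.74 (EGF, n = 5) and 24.6 ± 1.45 CPM (AII + EGF, n = 6), and the control libraries alone spread from 16.8 to 29.5 CPM.

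PHLDA3, a p53 target, fell under AII + EGF at 6 h. At 6 h it had 48.6, 48.9, 54.8 and 62.6 CPM in control, 43.7, 46.4, 51.8, 54.2 and 55.1 CPM under AII, and 47.4, 47.8 and 56.4 CPM under EGF. Under AII + EGF it had 22.3, 26.5, 28 and 28.7 CPM, below all 12 other kept 6 h libraries. At 24 h the control libraries spread from 30.9 through a median of 50.4 to 66.7 CPM. EGF (28.3 to 37.5 CPM, median 35.2) and AII + EGF (31.6 to 42.5 CPM, median 39.8) lay at the low end of that spread, and AII (40 to 59.7 CPM, median 50.4) in its middle.

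IER5 was high and nearly level at 6 h, with means of 134 ± 10.7 (control, n = 4), 126 ± 7.09 (AII, n = 5), 122 ± 13.9 (EGF, n = 3) and 114 ± 10.6 CPM (AII + EGF, n = 4). At 24 h the control libraries ran from 104 through a median of 134 to 151 CPM and the AII + EGF libraries from 153 through 173 to 195 CPM, without overlap, while AII (149 ± 11.5, n = 5) and EGF (147 ± 17.6, n = 5) overlapped with both. IER5L stayed between 1.24 and 5.21 CPM in all kept libraries. Its group means ran from 1.81 ± 0.581 (EGF 24 h, n = 5) to 3.19 ± 0.559 CPM (EGF 6 h, n = 3), and within each time the ranges of the 4 groups overlapped.

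The effect of each stimulus was tested against the control of its time with edgeR's quasi-likelihood test on the counts, with Benjamini-Hochberg adjustment over all 19626 genes. Calls needed an adjusted p below 0.01, a 1.5-fold change or more, and over 5 CPM on average in the highest of the groups compared. In bulk RNA a change in the share of cells that express a gene and a change in RNA per cell cannot be told apart.

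AII alone left the 7 members without a call at 6 h, where 0.469% of tested genes were called. The largest member changes on the log2 scale were 0.45 ± 0.25 (SE) for PHLDA1 and 0.31 ± 0.26 for IER3 (adjusted p 0.486 and 0.693). The smallest unadjusted p of a member was 0.0783, so none was under 0.05, and DESeq2 called none either. At 24 h AII called no gene at all (0% of tested genes; 343 had an unadjusted p under 0.05), and the member changes lay between −0.33 ± 0.23 (IER3) and 0.17 ± 0.09 (IER5).

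EGF alone raised IER3 and PHLDA2 at 6 h, so 2 of 7 members were called where 1.94% of tested genes were. PHLDA2 rose 2.9-fold (log2 change 1.54 ± 0.22, adjusted p 4.47e-06) and IER3 2.36-fold (1.24 ± 0.28, adjusted p 0.00277). IER2 (0.33 ± 0.14, adjusted p 0.176) and PHLDA1 (0.43 ± 0.28, adjusted p 0.454) did not pass, and PHLDA3 stood at −0.09 ± 0.16. The kept EGF libraries of 6 h were also deeper (28 to 30 M counts) than the control libraries (19 to 22.7 M), and the part of depth in these results was not tested. In the 2 stretches of consecutive sample titles that hold both groups (title runs), IER3 was higher under EGF by 1.03 and 1.21 and PHLDA2 by 1.38 and 2.02 on the log2 scale. With all 48 libraries the same 2 members and 2.63% of tested genes were called. With 40 libraries no member was called (0.615% of tested genes), at 1.54 ± 0.4 for PHLDA2 (adjusted p 0.0277) and 1.24 ± 0.38 for IER3 (adjusted p 0.0754). The 2 libraries added in this fit belong to neither group compared. The log2 changes of PHLDA2 and IER3 stayed as with 38 libraries, while their SE, which rest on a spread estimated over all groups, were larger. IER3 also lost its call without control 6 h replicate 3 (1.14, adjusted p 0.0143) or 6 (1.06, adjusted p 0.0258), or without EGF 6 h replicate 4 (1.14, adjusted p 0.0237) or 5 (1.22, adjusted p 0.0161).

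AII + EGF changed 3 members at 6 h, with 2 members higher and 1 lower among a background of 12% of tested genes called. IER3 rose 5.33-fold (log2 change 2.41 ± 0.26, adjusted p 1.81e-09) and PHLDA2 4.38-fold (2.13 ± 0.21, adjusted p 1.83e-10), while PHLDA3 fell to 0.49 of control (−1.03 ± 0.16, adjusted p 1.67e-06). A further 2 members passed the adjusted p but not the other limits. PHLDA1 stood at 1.44 ± 0.25 (adjusted p 1.98e-05) with a mean of only 4.02 CPM, and IER2 at 0.57 ± 0.13 (adjusted p 0.000677), a change of 1.49-fold. The change of PHLDA1 was 1.33 ± 0.25 with 40 libraries, 0.93 ± 0.23 with 46 (near-identical pairs included) and 0.82 ± 0.23 with all 48. IER5 (−0.24 ± 0.1, adjusted p 0.079) and IER5L (−0.18 ± 0.29, adjusted p 0.676) did not pass. IER2 crossed the fold limit without AII + EGF replicate 1 or control replicate 6 and with title runs as a block (0.65 ± 0.13). Its change was smaller with 40 libraries (0.45 ± 0.15, adjusted p 0.0198) and with all 48 (0.41 ± 0.13, adjusted p 0.00868).

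The 3 calls under AII + EGF were made with every set of libraries tried. IER3, PHLDA2 and PHLDA3 were called in all 38 fits that left out 1 library, with log2 changes of 2.25 to 2.68, 2.03 to 2.2 and −1.07 to −0.95. They were called with all 48 libraries (9.19% of tested genes called) at 2.12 ± 0.31, 1.98 ± 0.29 and −0.81 ± 0.16. With 40 libraries (8.15% of tested genes called) they stood at 2.17 ± 0.35, 1.88 ± 0.37 and −0.9 ± 0.17. Within the 2 title runs with both groups the log2 ratios were 1.98 and 2.42 for IER3, 1.98 and 2.76 for PHLDA2, and −1.07 and −0.76 for PHLDA3.

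**Figure D2:**
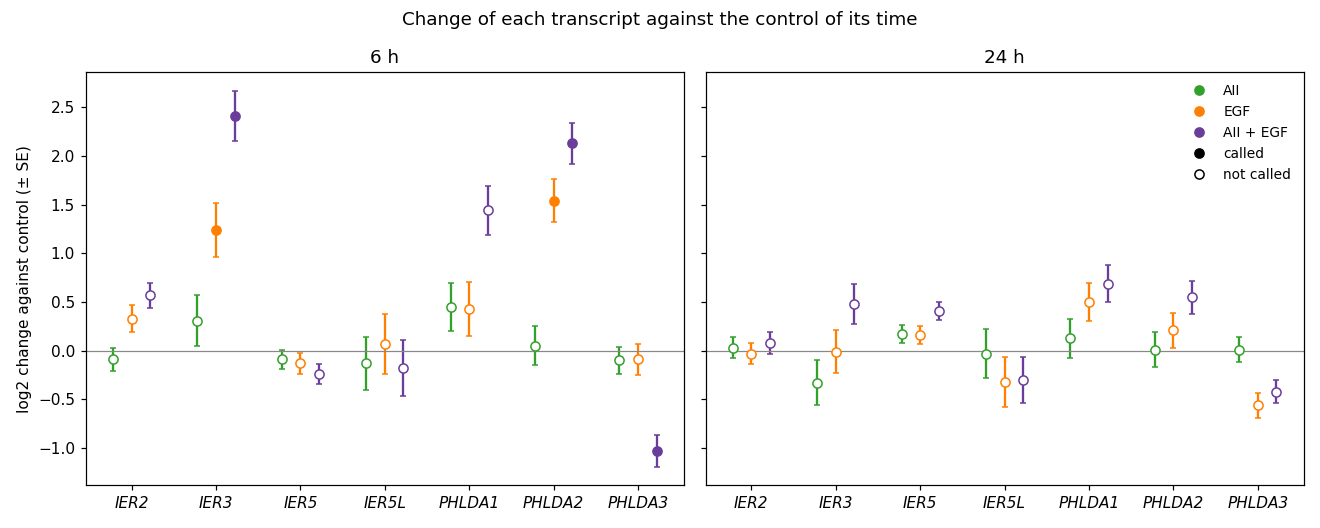
Log2 change of each member against the control of its time (± SE), at 6 h on the left and 24 h on the right, for AII (green), EGF (orange) and AII + EGF (purple), with filled points for called changes. IER3 and PHLDA2 are called under EGF and AII + EGF at 6 h, PHLDA3 is called lower under AII + EGF at 6 h (−1.03), and no point is filled at 24 h.

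At 24 h no member was called against control under EGF, where 0.245% of tested genes were called, or under AII + EGF, where 2.9% were. PHLDA3 came closest under EGF, at −0.56 ± 0.13 (adjusted p 0.0174), and it was called without the lowest control library, replicate 5 (−0.67, adjusted p 0.00133). Under AII + EGF, IER5 was higher by 0.41 ± 0.09 (adjusted p 0.000659), a change of 1.33-fold and so under the fold limit. PHLDA1 was at 0.69 ± 0.19 (adjusted p 0.00918) under the abundance limit, and PHLDA2 (0.55 ± 0.17, adjusted p 0.0202) and PHLDA3 (−0.42 ± 0.12, adjusted p 0.0147) missed the adjusted p. PHLDA2 was called without control 24 h replicate 3 (0.75, adjusted p 8e-04). IER3, with the largest change at 6 h, stood at 0.48 ± 0.21 (adjusted p 0.101). Over the 4 title runs of 24 h, IER5 was higher than control in all 4 but by very different amounts (0.03 to 0.88). PHLDA3 was lower in 3 of 4 runs (−0.64 to 0.34).

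The next comparison asked what AII added to cells that also received EGF. At 6 h 2 of 7 members were called between AII + EGF and EGF alone, with 2.92% of tested genes called. IER3 was 2.26-fold higher (1.18 ± 0.27, adjusted p 0.00247) and PHLDA3 1.92-fold lower (−0.94 ± 0.16, adjusted p 0.000121). PHLDA1 passed the adjusted p (1.02 ± 0.26, 0.00885) at too low an abundance, and PHLDA2, though without overlap between the groups, did not pass it (0.6 ± 0.21, adjusted p 0.0687). PHLDA2 was called when only these 2 groups entered the fit (0.61, adjusted p 0.00143, 4.43% of tested genes called) and with title runs as a block (0.79, adjusted p 0.00314, 3.51% called). With all 48 libraries PHLDA3 alone was called (−0.82 ± 0.15) among 0.331% of tested genes, and IER3 was at 0.97 ± 0.29 (adjusted p 0.0459). With 40 libraries neither was called (0.168% of tested genes), at −0.81 ± 0.18 for PHLDA3 (adjusted p 0.0157) and 0.93 ± 0.35 for IER3 (adjusted p 0.17). IER3 also lost its call without EGF 6 h replicate 3 (1.06, adjusted p 0.0294) or 5 (1.2, adjusted p 0.015). At 24 h no member was called (0.0917% of tested genes), and IER5 had the smallest adjusted p (0.25 ± 0.09, 0.257).

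The last comparison of this kind asked what EGF added to cells that also received AII. At 6 h 4 of 7 members were called between AII + EGF and AII alone, with 7.6% of tested genes called. PHLDA2 was 4.23-fold (2.08 ± 0.19, adjusted p 9.58e-11), IER3 4.31-fold (2.11 ± 0.24, adjusted p 8.62e-09) and IER2 1.58-fold higher (0.66 ± 0.12, adjusted p 7.79e-05). PHLDA3 was 1.91-fold lower (−0.93 ± 0.15, adjusted p 6.95e-06), and PHLDA1 (0.99 ± 0.23, adjusted p 0.00117) was again under the abundance limit. This comparison holds both libraries whose labels are in doubt. With all 48 libraries 3 members and 1.6% of tested genes were called, with log2 changes of 1.39 ± 0.3 for IER3, 1.22 ± 0.28 for PHLDA2 and −0.63 ± 0.16 for PHLDA3. IER2 was then at 0.42 ± 0.13 (adjusted p 0.0268). With 40 libraries IER3 (1.53 ± 0.29) and PHLDA3 (−0.71 ± 0.15) were called among 1.53% of tested genes, and PHLDA2 was at 1.25 ± 0.31 (adjusted p 0.0104). IER2 fell under the fold limit without AII + EGF replicate 5 (0.57, adjusted p 0.00124). At 24 h no member was called where 1.45% of tested genes were, and IER3 came closest (0.81 ± 0.22, adjusted p 0.0151).

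**Figure D3:**
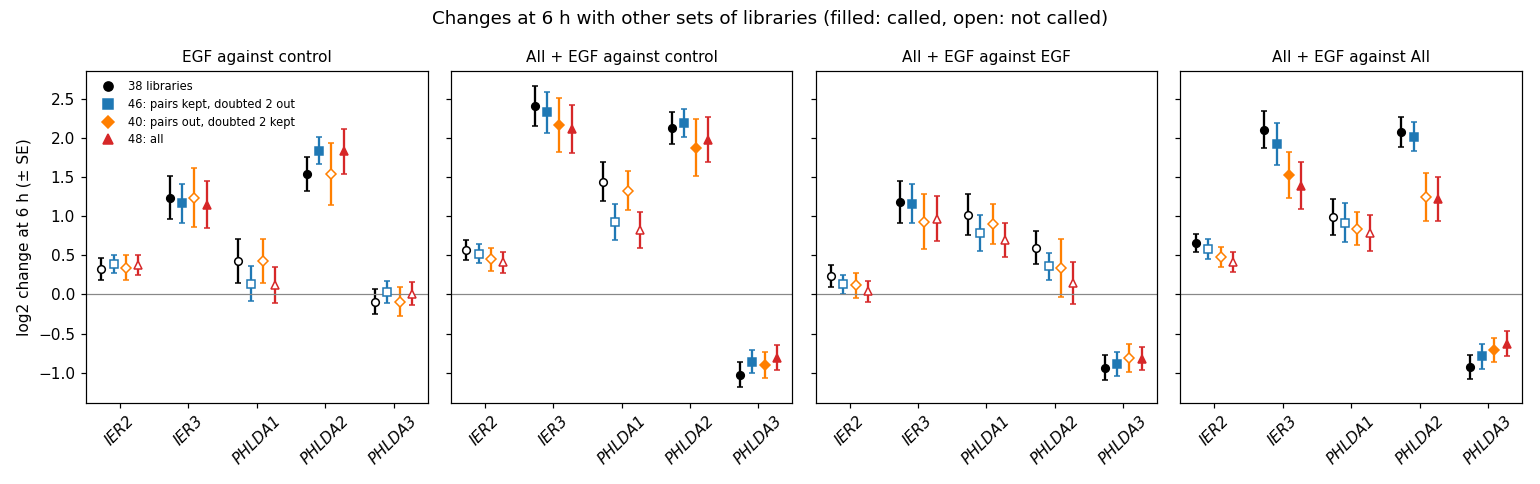
Log2 change at 6 h (± SE) of IER2, IER3, PHLDA1, PHLDA2 and PHLDA3 in 4 comparisons, each fitted on 38, 46, 40 and 48 libraries, with filled symbols for called changes. Against control the AII + EGF values of IER3, PHLDA2 and PHLDA3 are filled in all 4 fits, whereas between AII + EGF and AII the change of PHLDA2 drops from 2.08 with 38 libraries to 1.22 with 48.

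Values of the 2 doubted libraries themselves were far from those of their labelled groups. The library labelled AII 6 h replicate 6 had 21.3 CPM of PHLDA2, 7.93 of IER3 and 30.1 of PHLDA3, against at most 7.24, at most 3.94 and at least 43.7 CPM in the 5 kept AII libraries. The library labelled AII + EGF 6 h replicate 6 had 4.73 CPM of PHLDA2, 3.15 of IER3 and 37.8 of PHLDA3, against at least 20.3, at least 11.2 and at most 28.7 CPM in the 4 kept AII + EGF libraries.

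Whether both stimuli together did more than each alone was looked at on 2 scales. On the linear scale, the excess is the AII + EGF mean minus the EGF mean minus the AII mean plus the control mean, in CPM, given with its SE and no test. At 6 h it was 6.86 ± 1.09 CPM for IER3 and 7.44 ± 1.64 CPM for PHLDA2, and −20.7 ± 5.13 CPM for PHLDA3, each over 4 times its SE. PHLDA1 (1.49 ± 0.489 CPM) and IER2 (5.68 ± 2.52 CPM) had smaller ratios to their SE, of 3.05 and 2.25. IER5 (−0.776 ± 11.4 CPM) and IER5L (−0.283 ± 0.846 CPM) lay within 1 SE of 0. For PHLDA2 the excess rested on the choice of libraries, being 1.2 CPM with 40 libraries and −1.36 CPM with all 48. For IER2 it was 2.58 and 0.839 CPM. For IER3 it was 4.01 and 3.49 CPM, and for PHLDA3 −15 and −17 CPM. At 24 h IER3 kept 1.99 ± 0.803 CPM, and the other 6 members were within 1.5 SE of 0.

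On the log2 scale the interaction, that is the effect of AII with EGF minus the effect of AII without it, called no member at 6 h, where 0.229% of tested genes were called. PHLDA3 had −0.84 ± 0.22 (adjusted p 0.0581, unadjusted p 0.000475), IER3 0.87 ± 0.37 (adjusted p 0.38) and PHLDA2 0.54 ± 0.29 (adjusted p 0.561). The value of PHLDA2 turned negative with 40 libraries (−0.29 ± 0.5) and with all 48 (−0.61 ± 0.4). Of the 7 members, PHLDA3 and IER3 had an unadjusted p under 0.05, and DESeq2 called none. PHLDA3 was called when only the 4 groups of 6 h were fitted (−0.84, adjusted p 0.0042), a fit that called 0.613% of the genes it tested. At 24 h the interaction called no gene (0% of tested genes; 660 had an unadjusted p under 0.05), and the largest member value was 0.83 ± 0.32 for IER3 (adjusted p 0.998).

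**Figure D4:**
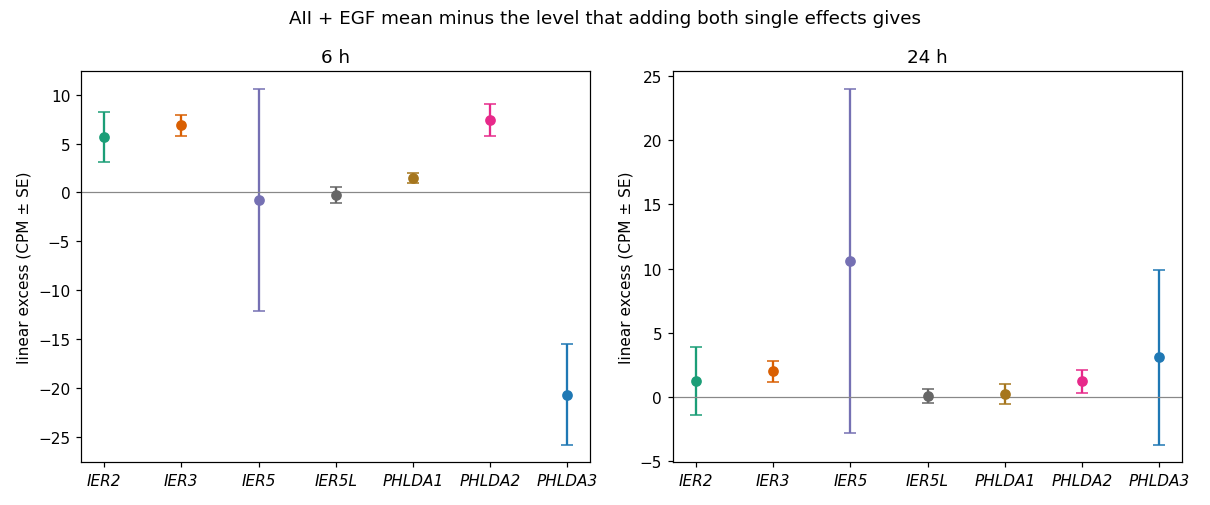
Linear excess of each member (CPM ± SE) at 6 h and 24 h, each panel with its own axis, where 0 means that the AII + EGF mean equals the sum of the single effects. PHLDA3 is at −20.7 CPM, IER3 at 6.86 CPM and PHLDA2 at 7.44 CPM at 6 h, and at 24 h the error bars of 5 of the 7 members reach 0.

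The responses were then compared between the times, as the log2 change at 24 h minus that at 6 h. The AII response differed in no member (0.138% of tested genes called), with the smallest adjusted p of 0.647 for IER5 (0.26 ± 0.13). The EGF response of PHLDA2 was smaller at 24 h by −1.33 ± 0.29 (adjusted p 0.00474), the only call among the 7 where 1.03% of tested genes were called. IER3 was at −1.25 ± 0.35 (adjusted p 0.0389). That call of PHLDA2 was lost with all 48 libraries (−1.69, adjusted p 0.0108, no member and 0.936% of tested genes called) and with 40 libraries (−1.33, adjusted p 0.28, no member and 0.00508% called). It was also lost without control 6 h replicate 5 or 6, or without EGF 6 h replicate 3, 4 or 5 (adjusted p 0.01 to 0.0216).

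The response to AII + EGF differed between the times in 3 members, in both directions, with 11.6% of tested genes called. IER3 (−1.93 ± 0.33, adjusted p 2.53e-05) and PHLDA2 (−1.58 ± 0.27, adjusted p 2.27e-05) had smaller responses at 24 h, and IER5 a higher one (0.65 ± 0.14, adjusted p 0.000378). For IER5 the change against control went from −0.24 at 6 h to 0.41 at 24 h. PHLDA3 (0.61 ± 0.2, adjusted p 0.0208) and IER2 (−0.5 ± 0.17, adjusted p 0.0266) did not pass, although PHLDA3 did without control 24 h replicate 3 or 6. With all 48 libraries the same 3 members were called (9.78% of tested genes), and with 40 libraries IER3 and IER5 were (6.56%), with PHLDA2 at −1.33 ± 0.47 (adjusted p 0.0458). In unstimulated cells no member was called between 24 h and 6 h, where 6.73% of tested genes were. PHLDA1 was higher at 24 h by 0.93 ± 0.24 (adjusted p 0.00266) at a mean of 2.82 CPM, under the abundance limit. Each title run holds 1 time only, so for the unstimulated cells run and time cannot be told apart.

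Other genes of the pathways to which the members belong were counted in the comparison of AII + EGF with control at 6 h, in which 12% of tested genes were called. Of 40 tested early response genes outside the IER and PHLDA families, 25 rose and 1 fell (median log2 change 0.99, against −0.03 over all genes). The synaptic gene ARC (5.43 ± 0.33) and the zinc finger factors EGR1 (5.22 ± 0.35), EGR3 (4.88 ± 0.26) and EGR2 (3.88 ± 0.32) changed most. Under EGF alone 11 of the 40 rose at 6 h and under AII alone 1, where 1.94% and 0.469% of tested genes were called. At 24 h under AII + EGF 5 rose, where 2.9% were called.

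PHLDA3 was set beside 21 other p53 target genes. Of these 9 fell and 3 rose under AII + EGF at 6 h, with a median log2 change of −0.44. DDB2 of DNA repair fell by 1.13 ± 0.12, CCNG1 (cyclin G1) by 1.08 ± 0.18 and the apoptosis gene BBC3 (PUMA) by 1.05 ± 0.18 on the log2 scale, whereas the cell cycle inhibitor CDKN1A rose by 0.91 ± 0.14. At 24 h 1 of the 21 was called lower under AII + EGF, where 2.9% of tested genes were called. Under EGF alone 1 was called higher at 6 h (1.94% of tested genes called) and none at 24 h (0.245%).

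HSF1 and PP2A were named above with the IER proteins, so HSF1 target genes and PP2A subunit genes were counted as well. Of 15 chaperone genes that HSF1 controls, 9 rose and none fell under AII + EGF at 6 h (median 0.72). Among them were HSPH1 (1.45 ± 0.13), HSP90AB1 (0.89 ± 0.19), HSPA8 (0.88 ± 0.17) and DNAJA1 (0.84 ± 0.13), which encode cytosolic chaperones. Under EGF alone 1 of the 15 rose at 6 h (1.94% of tested genes called), and under AII alone none (0.469%). Of 13 tested PP2A subunit genes 2 rose and 1 fell (23.1% called, against 12% of all tested genes). These were the regulatory subunits PPP2R2C (2.55 ± 0.25), PPP2R3A (0.79 ± 0.16) and PPP2R5B (−0.79 ± 0.14). Of 11 tested genes of the imprinted 11p15.5 domain around PHLDA2, OSBPL5 fell (−1.33 ± 0.14), CARS1 rose (0.73 ± 0.15) and the other 9 were not called. Of this list 18.2% were thus called, and counts this small give no reading about the PP2A or the 11p15.5 list.

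**Figure D5:**
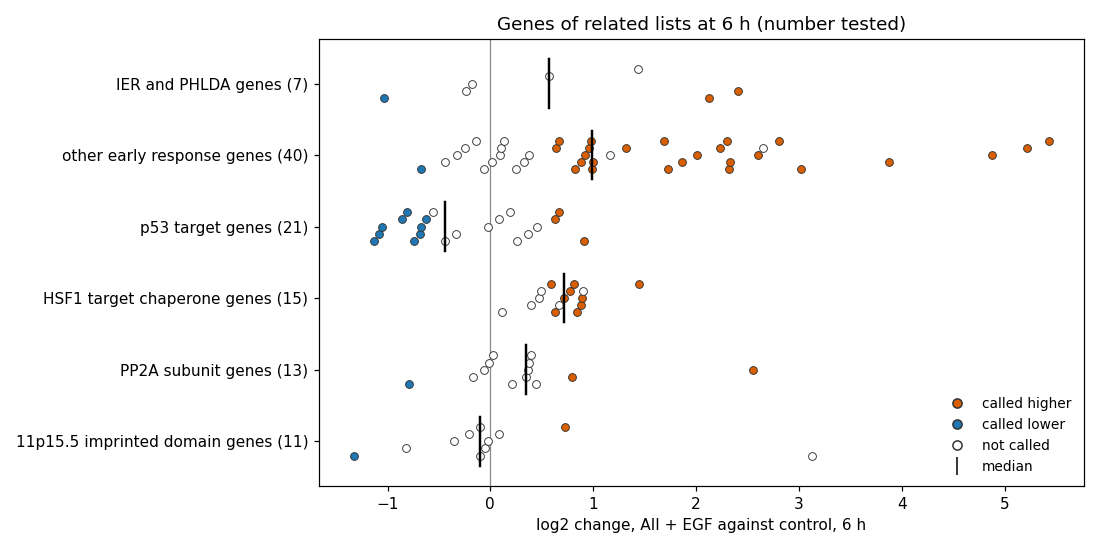
Log2 change of each tested gene in AII + EGF against control at 6 h, with 1 row for the IER and PHLDA genes and 1 for each related list, called genes in colour and the median as a bar. The other early response genes have a median of 0.99 and the p53 target genes of −0.44, the side on which PHLDA3 lies.

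Genes with the most similar pattern to each member were sought by Pearson's r of log2(CPM + 1) over the 38 libraries. All values come from the same libraries and follow the same groups, so r is a description. For PHLDA2 these were GAL (r 0.96), the long noncoding RNA AL031058.1 (0.95) and GADD45B (0.95), and for IER3 SMIM24 (0.94), SUSD4 (0.93) and INPP1 (0.93). PHLDA1 was most like CD24 (0.92), the receptor gene AGTR1 (0.92) and SAT1 (0.91), and PHLDA3 most like ZNF428 (0.91), HPS1 (0.88) and CDKN2C (0.87). IER5 followed MAP2K7 (0.9), IER5L followed BX255925.3 (0.85), and IER2 had the weakest best match, DBNDD2 (0.81). Among the members, IER3 and PHLDA2 were most alike (r 0.82, Spearman's rho 0.6), and IER3 and PHLDA3 had the lowest r (−0.64, rho −0.51) and PHLDA1 and PHLDA3 the lowest rho (−0.63, r −0.6).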

How the data were processed

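The authors mapped paired reads of poly(A) RNA to hg38 with HISAT2 2.1.0, counted fragments per Ensembl gene with featureCounts and deposited the raw counts of 48 libraries in 1 table. Whether counting used strand is not stated. Each library's group is the one its labels give. Replicates are numbered by deposition order and are not paired.

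Members and gene lists were chosen with earlier results of these data known. The 38 kept libraries, all 8 groups, entered 1 fit with edgeR 4.0.16 in R 4.3.3 (filterByExpr by group, TMM factors, quasi-likelihood test, no covariates). Calls needed an adjusted p below 0.01, a 1.5-fold change or more, and over 5 CPM on average in the highest group compared. The SE is the log2 change divided by the square root of F. The steps were tested on simulated counts in which only more abundant genes changed, so sparse members such as PHLDA1 and IER5L were not covered. Totals averaged 22.3 ± 3.02 M counts (SD, n = 38). Named genes were the members, genes overlapping them, the 3 genes most like each, and at most 4 called genes per list with the largest change in AII + EGF against control at 6 h.

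Alternatives were DESeq2 1.42.0, calls shared by edgeR and DESeq2, RLE factors, the filter stated by the study, no filter, an adjusted p under 0.05, no fold or abundance minimum, 48, 46 or 40 libraries, only the groups compared, title runs as a block, and leaving out each library.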

Additional observations from a re-analysis of the deposited data

Results flagged for a closer look

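A single library stood away from the rest of its group in 2 of 49 sets of member values with at least 4 libraries, where chance gives about 1 in 20. IER2 in EGF 24 h replicate 3 was 18.1 CPM, with the next of the 5 libraries at 23.2 CPM. IER5L in AII + EGF 6 h replicate 5 was 3.1 CPM, with the next of the 4 at 2.57 CPM. The 3 EGF libraries of 6 h were too few for this check.

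The response to a stimulus differed between 24 h and 6 h, by the test of the difference itself, in PHLDA2 under EGF (−1.33 on the log2 scale) and under AII + EGF (−1.58), in IER3 under AII + EGF (−1.93) and in IER5 under AII + EGF (0.65).

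The 2 libraries with doubted labels entered none of the main comparisons, and some member values in them lay above all kept 6 h control libraries. In the library labelled AII 6 h replicate 6 these were PHLDA2 (21.3 CPM, highest control 5.85), IER3 (7.93, 3.74), IER5L (6.5, 5.21), IER2 (23.1, 22.2) and PHLDA1 (2.27, 1.76). In the library labelled AII + EGF 6 h replicate 6 it was PHLDA1 (2.52 CPM, 1.76).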

How the results depend on the processing

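DESeq2, RLE factors, calls shared by edgeR and DESeq2, no filter and the filter stated by the study called the same members as reported in all 16 comparisons. Other sets of libraries changed some calls, and the causes were not tested. The 2 libraries added in the fit with 40 enter neither EGF against control at 6 h nor the EGF response between the times. There the log2 changes of PHLDA2 (1.54 and −1.33) were the same as with 38 libraries, and the adjusted p were larger. With 40 libraries the number of members called went from 2 to 0 for EGF against control at 6 h, from 2 to 0 for AII + EGF against EGF at 6 h, from 4 to 2 for AII + EGF against AII at 6 h and from 1 to 0 for the EGF response at 24 h minus 6 h. With all 48 libraries it went from 2 to 1 for AII + EGF against EGF at 6 h and from 1 to 0 for the EGF response between the times, and the linear excess of PHLDA2 at 6 h turned from 7.44 to −1.36 CPM. When only the groups compared were fitted, the 6 h interaction went from 0 to 1 (PHLDA3, while the share of all tested genes called went from 0.229% to 0.613%) and the EGF response between the times from 1 to 0 (1.03% to 0.291% of tested genes). That response went to 2 with title runs as a block (2.75% of tested genes) and with an adjusted p under 0.05. Without a fold minimum AII + EGF against control at 24 h went from 0 to 1 (IER5). Without an abundance minimum it went from 0 to 1 (PHLDA1), and so did control at 24 h against 6 h (PHLDA1). The fit with title runs gives no value for the last comparison.

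Leaving out 1 library at a time gave 1 to 2 members for EGF against control at 6 h, 1 to 2 for AII + EGF against EGF at 6 h, 0 to 1 for the EGF response between the times and 0 to 1 for EGF and for AII + EGF against control at 24 h. It gave 3 to 4 for AII + EGF against control at 6 h, against AII at 6 h, and for the AII + EGF response between the times. In the other 8 comparisons the number stayed at 0. The share of all tested genes called is not given for these fits, nor for the relaxed limits on p, fold and abundance. These counts therefore describe the members alone. No analysis paired by replicate number was possible because the titles carry none, and the title run was the only block tried.

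The lowest counts of a member in a kept library were 23 (PHLDA1) and 27 (IER5L).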
